A study of Mus musculus with 16 samples.

Results

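The gasdermins are a family of pore-forming proteins. Of the 41411 genes in the deposited expression table, 8 were chosen by gene name: Gsdma, Gsdma2, Gsdma3, Gsdmc, Gsdmc2, Gsdmc3, Gsdmc4 and Gsdmd. Their relatives Gsdme and Pjvk, also in the table, are not among the 8. All 8 were taken, whatever their values. They were followed through 16 esophagus libraries of C57BL/6 mice. The libraries were made by CEL-Seq, which reads short tags near the 3′ end of transcripts. They formed 4 groups of 4. KO OXA and KO vehicle mice carried the genotype Il13ra1-/- and lacked Il13ra1, a receptor chain that pairs with Il4ra and through which IL-13 and IL-4 signal. WT OXA and WT vehicle mice were wild type. OXA is oxazolone, a small molecule that sensitizes by contact, used here in a model of eosinophilic esophagitis, and vehicle-treated mice were its controls. The labels give no age, sex, dose or duration, and they do not say which exons are missing in Il13ra1-/- mice or that the libraries of a group came from separate animals. The p-values therefore measure the spread between these libraries.

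A gasdermin is made as an inactive protein whose C-terminal domain holds back its N-terminal domain. When a protease cuts the link, the N-terminal fragments assemble into pores in the plasma membrane, which release cytokines such as IL-1β and IL-18 and can end in a lytic cell death called pyroptosis. Mice have several Gsdma and several Gsdmc genes in place of the single human GSDMA and GSDMC. Gsdma is known from skin and the squamous lining of the upper digestive tract, the Gsdmc genes from mouse intestine, where IL-4 and IL-13 raise them during worm infection, and Gsdmd from immune cells and many epithelia.

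The 8 genes sit in 3 places of the genome (GRCm38 coordinates as deposited). Gsdma3, Gsdma2 and Gsdma lie side by side within 51.4 kb of chromosome 11, at chr11:98626360-98638226, chr11:98646759-98657964 and chr11:98664351-98677708. Gsdmc, Gsdmc2, Gsdmc3 and Gsdmc4 lie within 136 kb of chromosome 15, at chr15:63775968-63808759, chr15:63824346-63845177, chr15:63857724-63878558 and chr15:63891264-63912297. Gsdmd lies alone farther along the same chromosome, at chr15:75862327-75867408. The identifiers are ENSMUSG00000017204 for Gsdma, ENSMUSG00000079025 for Gsdmc, ENSMUSG00000056293 for Gsdmc2 and ENSMUSG00000022575 for Gsdmd.

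Reads of one copy can be hard to tell from those of another. The protein-coding ends show how close the copies are in coding sequence, while CEL-Seq tags lie near the transcript ends. The last 60 coding bases, stop codon included, are given 5′ to 3′ on the coding strand from the GENCODE M21 gene models on GRCm38. Capitals mark bases that differ from Gsdmc2 in Gsdmc3 and Gsdmc4, and from Gsdma in Gsdma2. The Gsdmc copies are on the minus strand at chr15:63824878-63824937 for Gsdmc2, chr15:63858271-63858330 for Gsdmc3, chr15:63891804-63891863 for Gsdmc4 and chr15:63776677-63776736 for Gsdmc. The Gsdma copies are on the plus strand at chr11:98676357-98676416 for Gsdma and chr11:98657696-98657755 for Gsdma2.
Gsdmc2: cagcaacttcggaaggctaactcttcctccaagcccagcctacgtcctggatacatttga
Gsdmc3: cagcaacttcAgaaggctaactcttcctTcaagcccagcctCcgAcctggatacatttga
Gsdmc4: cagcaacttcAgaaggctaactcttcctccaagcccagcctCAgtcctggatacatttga
Gsdmc: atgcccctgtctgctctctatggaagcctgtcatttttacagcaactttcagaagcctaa
Gsdma: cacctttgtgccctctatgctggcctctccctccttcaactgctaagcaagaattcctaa
Gsdma2: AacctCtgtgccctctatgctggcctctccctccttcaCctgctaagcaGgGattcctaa

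In these 60 bases Gsdmc3 differs from Gsdmc2 at 4 positions, Gsdmc4 differs from Gsdmc2 at 3, and Gsdma2 differs from Gsdma at 5. Over the whole coding sequence Gsdmc2 and Gsdmc3 are 97.1% identical, Gsdmc4 is 93% identical to either, and Gsdmc is 82.8% identical to Gsdmc2. Gsdma and Gsdma2 are 89.8% identical there. Over the last 500 transcript bases identity is 57.4% for Gsdmc2 and Gsdmc3, 89.5% for Gsdmc3 and Gsdmc4, and 43.9% for Gsdma and Gsdma2. Of the 50-base windows in the last 500 transcript bases, 29.3% of those in Gsdmc, 33.3% in Gsdmc2, 38.1% in Gsdmc3 and 7.98% in Gsdmc4 also occur exactly in another gasdermin transcript. For Gsdma3 the share is 8.87%, for Gsdma2 it is 0.222%, and for Gsdma and Gsdmd no window is shared. Values of Gsdmc, Gsdmc2, Gsdmc3, Gsdmc4 and Gsdma3 are therefore uncertain as values of single copies, while the ends of Gsdma and Gsdmd share no window with the gasdermins compared. Of these windows in Gsdmc, 27.3% occur in Gsdmc2, and some of those occur in Gsdmc3 too. The Gsdma3 transcript used ends at its stop codon, so its windows are all coding sequence. How reads that match several genes were counted is not given in the sources used here.

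Values below are deposited values, which are reads per gene divided by a size factor of the library. They are not divided by length, so levels are compared between groups and not between genes. The number of reads recovered was 8.82 to 15.2 M in KO OXA, 7.91 to 16.5 M in KO vehicle, 20.2 to 27.3 M in WT OXA and 5.61 to 9.55 M in WT vehicle, so depth moved with the groups. The share of reads from mitochondrial rRNA genes moved with them too, at 0.570% to 1.17% in KO OXA, 0.694% to 1.73% in KO vehicle, 0.445% to 0.460% in WT OXA and 1.099% to 1.71% in WT vehicle. Its part in the results below was not tested. Il13ra1 itself lay between 44.0 and 174 in KO OXA, 31.2 and 64.7 in KO vehicle, 584 and 874 in WT OXA and 134 and 226 in WT vehicle, lower in every Il13ra1-/- library than in any wild-type library of the same treatment. The labelled tissue was checked on the esophageal keratins Krt4 and Krt13. The lowest library had 290427 for Krt4 and 116771 for Krt13, while Sbsn, another gene of that lining, was at 0 in all libraries. Markers of airway and glandular stomach were read as well, and their sums are given below.

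OXA in wild-type mice moved the family in opposite directions: Gsdmc, Gsdmc2 and Gsdmd rose and Gsdma fell. Of the 8 genes, 6 reached a value of 5 in at least 4 libraries and were tested with limma over 16748 genes. In WT OXA against WT vehicle 3 of the 6 rose, where 18% of all genes tested rose, and 1 fell, where 16% of all genes fell. In KO OXA against KO vehicle none of the 6 passed, where 1.9% of all genes were called. In that comparison 2 had an unadjusted p under 0.05, edgeR called 0 and DESeq2 called 1. Without KO OXA library 4 the member Gsdmc passed, and 1032 genes were called in place of 318. The difference between the OXA effects (KO effect minus WT effect) was positive for 1 gene, where 10.1% of all genes were called in that direction, and negative for 2, where 7.67% were. Between the vehicle-treated groups none of the 6 passed, where 0.0597% of all genes were called. There no member had an unadjusted p under 0.05, and neither edgeR nor DESeq2 called any. In KO OXA against WT OXA 2 were higher, where 14.6% of all genes were, and 3 were lower, where 12.9% were. The last comparison and the WT comparison share the 4 WT OXA libraries, so their results are not independent of each other. Gsdmc2 passed the filter through the WT OXA libraries, where it was high, so these counts say nothing about the family as a whole.

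**Figure D1:**
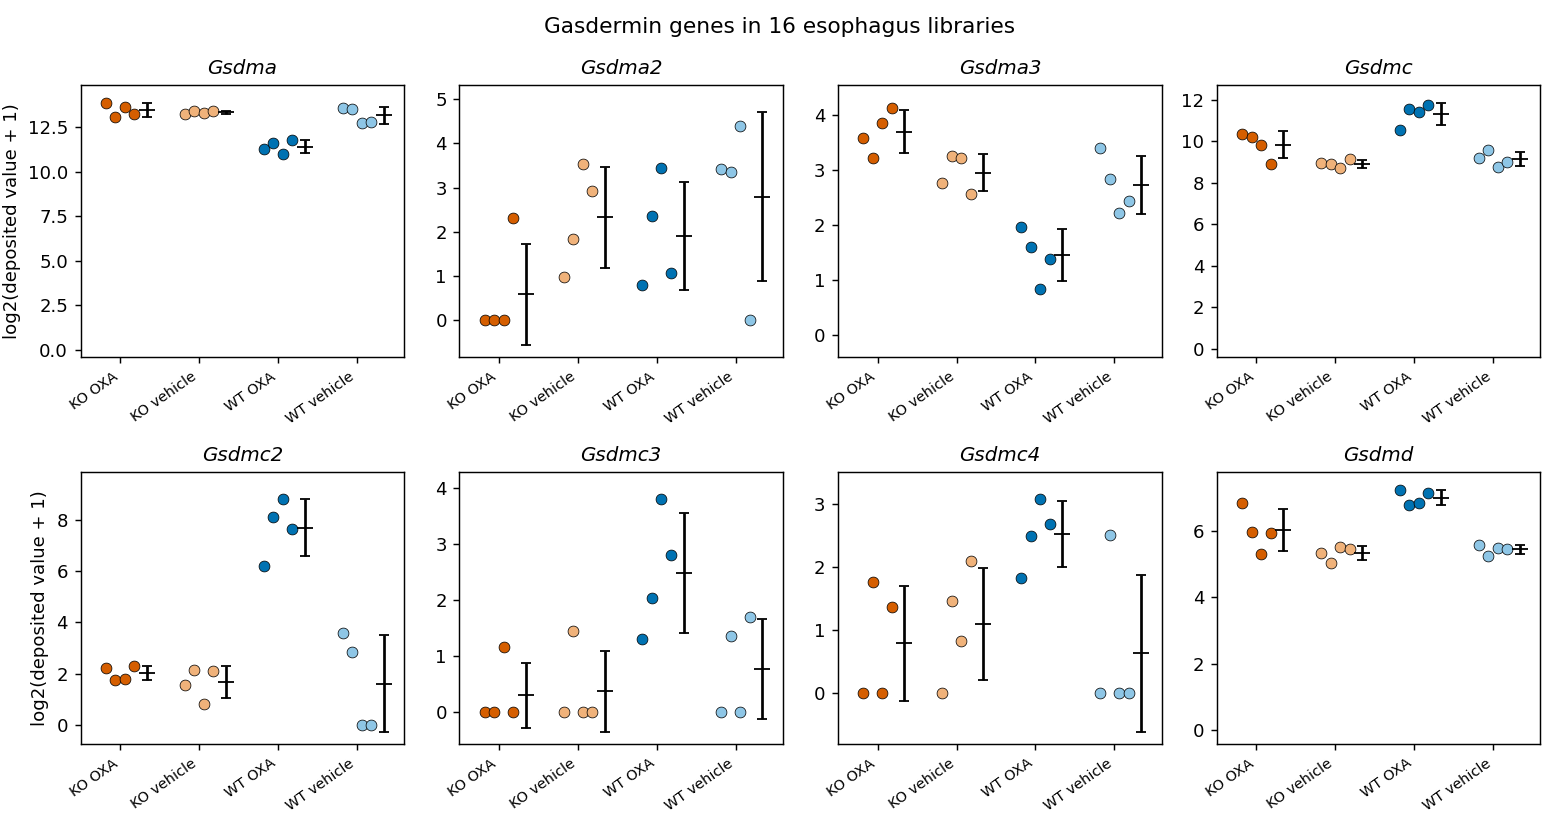
Each panel plots 1 gasdermin gene as log2(deposited value + 1), with 1 point per library and the mean ± SD beside each group of 4. In WT OXA all 4 points of Gsdma lie below, and all 4 points of Gsdmc, Gsdmc2 and Gsdmd above, those of WT vehicle.

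Of the Gsdma genes, Gsdma, the copy of squamous epithelia, fell in wild-type mice given OXA, and Gsdma2 and Gsdma3 did not pass. Gsdma had values of 2516, 3103, 2048 and 3520 in the WT OXA libraries, against 12348, 11868, 6818 and 7203 in the WT vehicle libraries. Every WT OXA library was below every WT vehicle library. The change was -1.75 ± 0.23 on the log2(value + 1) scale (SE, adjusted p = 8.93e-06), a scale that understates the change of low genes. In Il13ra1-/- mice Gsdma had 15257, 8730, 12981 and 9660 under OXA, against 9861, 11059, 10034 and 11035 under vehicle. These groups overlapped, and the log2 change was 0.12 ± 0.23 with a 95% interval of -0.35 to 0.59 (adjusted p = 0.867), whose sign turned under 2 other scalings. The KO effect of OXA exceeded the WT effect by 1.87 ± 0.32 (adjusted p = 0.000535). Mean levels were 11660 ± 3015 in KO OXA, 10500 ± 639 in KO vehicle, 2797 ± 647 in WT OXA and 9559 ± 2954 in WT vehicle (SD, n = 4 each). WT OXA was the lowest group, and the other 3 did not differ beyond their spread. Under OXA the KO libraries were 2.05 ± 0.23 above the WT libraries (adjusted p = 1.48e-06), and under vehicle they differed by 0.19 ± 0.23 (adjusted p = 0.83).

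Gsdma3, whose dominant mutations cause hair loss in mice, was a low gene with the same order as Gsdma. It had values of 11, 8.33, 13.6 and 16.6 in KO OXA and 5.85, 8.63, 8.37 and 4.92 in KO vehicle. It had 2.90, 2.05, 0.780 and 1.62 in WT OXA, against 9.64, 6.18, 3.65 and 4.46 in WT vehicle. All WT OXA libraries were below all libraries of the other groups. The values rest on 45 reads in KO OXA, 30 in KO vehicle, 17 in WT OXA and 15 in WT vehicle, although WT OXA was sequenced most deeply. Gsdma3 was higher in KO OXA than in WT OXA by 2.25 ± 0.52 (adjusted p = 0.00292). Its WT effect of OXA was -1.282 ± 0.52 and did not pass (adjusted p = 0.0647), though it passed under 5 of 27 alternatives. The difference between the OXA effects was 2.03 ± 0.74 (adjusted p = 0.0637) and passed under 3 of 27 alternatives, and in KO mice the OXA effect was 0.74 ± 0.52 (adjusted p = 0.561). In GENCODE M21 the gene Gsdma3 ends 137 bases after the stop codon of the transcript used, against 1292 for Gsdma. The part of this short end in the low values was not tested.

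Gsdma2 varied within groups and passed in no comparison. It had 0, 0, 0 and 3.94 in KO OXA, 0.970, 2.59, 10.7 and 6.57 in KO vehicle, 0.730, 4.11, 9.81 and 1.08 in WT OXA, and 9.64, 9.27, 20.1 and 0 in WT vehicle. The groups overlapped in each comparison. The OXA effect was -1.75 ± 0.96 in KO mice (adjusted p = 0.432) and -0.88 ± 0.96 in WT mice (adjusted p = 0.512). Gsdma2 and Gsdma3 together held between 0.0618% and 0.515% of the summed value of the Gsdma branch in any library.

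The decrease of Gsdma in WT OXA came with a decrease of other genes of the differentiated squamous layers. Of 13 tested suprabasal and cornified genes 9 fell in WT OXA and none rose, where 16% of all genes fell and 18% rose. Their median log2 change was -1.71, against 0.10 over all genes tested. The summed value of the 16 listed genes was 458900 to 750600 in WT OXA, against 1397000 to 2052000 in WT vehicle. In KO OXA it was 1392000 to 2927000, against 1527000 to 1821000 in KO vehicle. None of the 13 was called there, where 1.9% of all genes were. At equal library totals 10 fell and 1 rose in WT OXA. In bulk tissue, fewer cells of a type and less RNA per cell cannot be told apart, and the part of these layers in the Gsdma values was not tested. The genes whose log2 values over the 16 libraries were most like Gsdma were Lypd5 (r = 0.984), Lce3a (r = 0.983), Acox2 (r = 0.982), Lce3e (r = 0.981) and Sh3gl1 (r = 0.980). Lce3a and Lce3e encode late cornified envelope proteins, and Lypd5 a membrane-anchored protein of the Ly6 family. These Pearson coefficients describe libraries that differ by group, and they carry no test.

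Of the Gsdmc genes, Gsdmc and Gsdmc2 were tested, and both rose in wild-type mice given OXA. Gsdmc, whose human counterpart can be cut by caspase-8, had 1507, 3042, 2699 and 3409 in WT OXA, against 593, 771, 431 and 515 in WT vehicle. Each WT OXA library was above every other library of the study. The change was 2.17 ± 0.28 (adjusted p = 7.88e-06). In Il13ra1-/- mice Gsdmc had 1313, 1199, 892 and 484 under OXA, against 486, 471, 412 and 568 under vehicle. Libraries 1, 2 and 3 of KO OXA were above all KO vehicle libraries, and library 4 was among them. The KO effect was 0.91 ± 0.28 with a 95% interval of 0.34 to 1.49 and did not pass (unadjusted p = 0.00359, adjusted p = 0.1099). It passed with DESeq2 (adjusted p = 0.01185), and without KO OXA library 4 it was 1.22 (adjusted p = 0.00509).

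The OXA effect on Gsdmc was smaller in Il13ra1-/- than in wild-type mice by 1.26 on the log2 scale, a difference of -1.26 ± 0.39 (adjusted p = 0.0312). This call was the least firm of the 3: it was lost in 9 of 28 alternatives, 7 of which left out a single library, with adjusted p between 0.05268 and 0.07315. Those libraries were WT OXA 2, 3 and 4, WT vehicle 3, KO vehicle 1 and 4 and KO OXA 3. Mean levels were 972 ± 371 in KO OXA, 484 ± 64.4 in KO vehicle, 2664 ± 824 in WT OXA and 578 ± 145 in WT vehicle (SD, n = 4 each). WT OXA was highest and KO OXA next, with a range that overlapped those of both vehicle groups. Under OXA the KO libraries were 1.49 below the WT libraries on the log2 scale (-1.49 ± 0.28, adjusted p = 0.000451). Under vehicle the difference was -0.23 ± 0.28 (adjusted p = 0.828), so the vehicle groups did not differ beyond their spread.

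Gsdmc2 had the largest change of the family. It had 72.6, 272, 448 and 195 in WT OXA, against 11.02, 6.18, 0 and 0 in WT vehicle. In KO OXA it had 3.67, 2.38, 2.48 and 3.94, against 1.95, 3.45, 0.760 and 3.28 in KO vehicle. The lowest WT OXA library was above all 12 other libraries, which were near the floor of detection. The group sums were 11 reads in KO OXA, 9 in KO vehicle, 2235 in WT OXA and 12 in WT vehicle. The WT change was 6.07 ± 0.75 (adjusted p = 5.94e-06). Because so many WT vehicle values are at or near 0, the size depends on the pseudocount and was 4.68 with 5 and 6.61 with 0.5. It ranked as the 15th largest increase of the 16748 genes tested. Gsdmc2 passed the filter through the WT OXA libraries, where it was high, so this rank is a description only.

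In Il13ra1-/- mice Gsdmc2 changed by 0.36 ± 0.75 with OXA (95% interval -1.21 to 1.94, adjusted p = 0.879). The KO effect differed from the WT effect by -5.71 ± 1.06 (adjusted p = 0.00112). In KO OXA against WT OXA the difference was -5.66 ± 0.75 (adjusted p = 1.47e-05), and under vehicle it was 0.05 ± 0.75 (adjusted p = 0.992). After all libraries were thinned to 5.61 M reads, Gsdmc2 kept 515 reads in WT OXA and 8 in WT vehicle, and its WT change was 5.96.

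Gsdmc3 and Gsdmc4, the copies nearest to Gsdmc2 in sequence, stayed under the filter and gave a similar picture at a few reads. Gsdmc3 had 1.45, 3.08, 12.95 and 5.94 in WT OXA, against 0, 1.55, 0 and 2.23 in WT vehicle. Gsdmc4 had 2.54, 4.62, 7.45 and 5.40 in WT OXA, against 0, 4.64, 0 and 0 in WT vehicle. In Il13ra1-/- mice both copies lay between 0 and 3.28 in all 8 libraries. Gsdmc3 had 1 read in KO OXA, 2 in KO vehicle, 54 in WT OXA and 2 in WT vehicle, and Gsdmc4 had 4 in KO OXA, 5 in KO vehicle, 45 in WT OXA and 3 in WT vehicle. With no filter the WT change was 1.72 for Gsdmc3 (adjusted p = 0.0466) and 1.89 for Gsdmc4 (adjusted p = 0.0514). At equal depth Gsdmc3 had 14 reads in WT OXA and 2 in WT vehicle, and Gsdmc4 had 15 in WT OXA and 3 in WT vehicle. Reads of these copies and reads of Gsdmc2 placed on them cannot be told apart here.

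Within WT OXA the Gsdmc copies did not vary evenly. Library 1 was lowest and library 3 highest for each of Gsdmc2, Gsdmc3 and Gsdmc4, while Gsdmc was lowest in library 1 and highest in library 4. Gsdmc2, Gsdmc3 and Gsdmc4 together made up 4.84% to 14.8% of the summed value of the Gsdmc branch in WT OXA, against at most 1.82% in WT vehicle. The same share was at most 1.13% in KO OXA, against at most 1.44% in KO vehicle. Of 8 intestinal genes, Cdx1, Cdx2 and Alpi were at 0 in all WT OXA libraries. Muc2 had 24 reads in WT OXA, Cdh17 had 13 and Vil1 had 7, and all 3 were at 0 in WT vehicle, which was sequenced less deeply. Fabp2 had 4 reads in WT OXA and 13 in WT vehicle, and Lgals4 had 298 in WT OXA and 73 in WT vehicle. The summed value of 8 intestinal markers was 21.04 to 54.4 in WT OXA, against 20.1 to 41.96 in WT vehicle. None of the 3 tested intestinal markers was called. Of the other lists, 2 of 3 hair follicle and sebaceous markers, 2 of 2 airway, 3 of 8 skeletal muscle and 3 of 7 smooth muscle markers fell in WT OXA, 4 of 8 basal epithelial markers fell and 2 rose (2 fell and 3 rose at equal library totals), and none of 5 glandular stomach markers was called. Over all genes 16% fell and 18% rose in WT OXA. None of these markers was called in KO OXA, where 1.9% of all genes were. The summed value of 6 airway markers was 617 to 1043 in WT OXA, against 35760 to 54350 in WT vehicle. It was 17170 to 32860 in KO OXA and 25500 to 34070 in KO vehicle. Only 2 of these 6 were tested, and Foxj1 and Bpifa1 were at 0 in all WT vehicle libraries. The sum is therefore not read as an amount of airway epithelium. For 9 glandular stomach markers the summed value was 75.9 to 935 in WT OXA, against 62.4 to 1992 in WT vehicle. The part of these markers in the results was not tested.

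Genes most like Gsdmc over the 16 libraries were Txn1 (r = 0.986), Tram1 (r = 0.977), Sprr2j-ps (r = 0.968), Actr3 (r = 0.958) and Endou (r = 0.958). Txn1 encodes the redox protein thioredoxin, Tram1 a protein of the endoplasmic reticulum channel and Actr3 a subunit of the actin-branching Arp2/3 complex. Sprr2j-ps is a pseudogene of the small proline-rich family and may share reads with its copies.

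The balance between the main copies of both branches set WT OXA apart. Gsdma held 38.4% to 59.2% of the reads of the 8 genes in WT OXA, against 92.7% to 94.9% in WT vehicle. Gsdmc held 35.4% to 50.6% in WT OXA, against 4.56% to 6.63% in WT vehicle. In KO OXA Gsdma held 87.3% to 94.4%, against 94.6% to 95.5% in KO vehicle. Gsdmc held 4.73% to 11.99% in KO OXA, against 3.92% to 4.87% in KO vehicle. Gasdermin reads of all 8 genes made up 802 to 1032 per M reads in KO OXA, 831 to 945 in KO vehicle, 429 to 668 in WT OXA and 570 to 990 in WT vehicle.

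**Figure D2:**
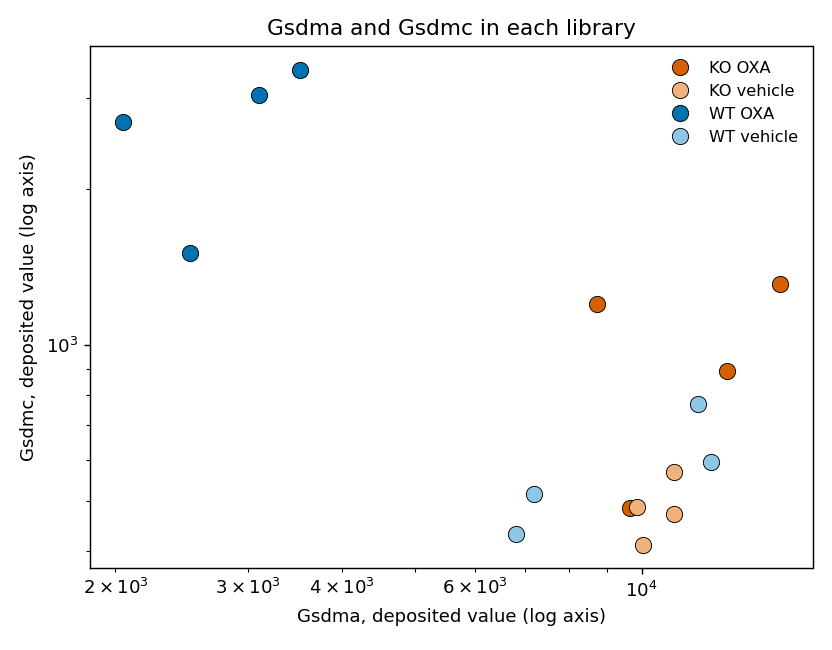
Each point is 1 library, placed by its deposited value of Gsdma (horizontal log axis) and Gsdmc (vertical log axis) and coloured by group. The 4 WT OXA libraries stand apart at low Gsdma (2048 to 3520) and high Gsdmc (1507 to 3409), and the other 12 lie at Gsdma of at least 6818 and Gsdmc of at most 1313.

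Gsdmd, the gasdermin cut by caspase-1 and by mouse caspase-11 (Casp4) in pyroptosis, rose in wild-type mice given OXA. It had 149, 108, 113 and 139 in WT OXA, against 46.8, 37.1, 43.8 and 42.3 in WT vehicle. The lowest WT OXA library exceeded the highest WT vehicle library more than 2-fold, and the log2 change was 1.55 ± 0.29 (adjusted p = 0.000372). In KO OXA Gsdmd had 114, 61.9, 38.4 and 59.9, against 39.0, 31.9, 44.9 and 42.7 in KO vehicle. Libraries 1, 2 and 4 of KO OXA were above all KO vehicle libraries, and library 3 was among them. The KO effect was 0.68 ± 0.29 (95% interval 0.08 to 1.276, unadjusted p = 0.0283, adjusted p = 0.286).

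The OXA effects on Gsdmd were not shown to differ between genotypes: the difference was -0.87 ± 0.40 (95% interval -1.72 to -0.03, adjusted p = 0.145). It passed under equal library totals (adjusted p = 0.0210) and without KO OXA library 1 (adjusted p = 0.0353). Under OXA Gsdmd was lower in KO than in WT libraries, with a difference of -0.98 ± 0.29 (adjusted p = 0.0147). The groups overlapped, as KO OXA library 1 (114) was above WT OXA libraries 2 (108) and 3 (113). This call was lost without WT OXA library 1 (adjusted p = 0.05003) and without KO OXA library 3 (adjusted p = 0.0636). Under vehicle the difference was -0.11 ± 0.29 (adjusted p = 0.932). Mean levels were 68.5 ± 32 in KO OXA, 39.6 ± 5.68 in KO vehicle, 127 ± 20 in WT OXA and 42.5 ± 4.06 in WT vehicle (SD, n = 4 each). WT OXA was highest and KO OXA next, and the vehicle groups did not differ beyond their spread.

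Several markers of leukocytes, which also express Gsdmd, rose with OXA. Those of T cells and neutrophils were highest in WT OXA, as Gsdmd was, while the mean summed value of those of macrophages and dendritic cells was 15450 in KO OXA and 14190 in WT OXA. All 8 T cell markers rose in WT OXA, where 18% of all genes rose, and none of the 8 was called in KO OXA, where 1.9% were. The summed values of the 8 were 82.9 to 541 in KO OXA, 36.1 to 205 in KO vehicle, 570 to 846 in WT OXA and 44.8 to 180 in WT vehicle. Of 5 tested neutrophil markers 4 rose in WT mice and 1 in KO mice, or none there at equal library totals. The macrophage and dendritic cell list had 7 of 10 markers that rose in KO mice and 7 of 10 in WT mice, with summed values of 10990 to 22610 in KO OXA, 3880 to 5713 in KO vehicle, 13550 to 14590 in WT OXA and 6561 to 8541 in WT vehicle. Only 2 of 8 eosinophil markers were tested, and markers high in WT OXA could pass the filter through it. Both rose in WT OXA and neither was called in KO OXA, and Epx, which defines these cells, was at 0 in all libraries. The summed value of the 8 was 21.3 to 83.3 in KO OXA and 18.1 to 50.9 in KO vehicle. It was 112.5 to 188 in WT OXA and 20.1 to 47.9 in WT vehicle. The part of these cells in the Gsdmd values was not tested. The genes most like Gsdmd were Prf1 (r = 0.961), Upp1 (r = 0.956), Slco2a1 (r = 0.942), Tmsb10 (r = 0.934) and Sprr2j-ps (r = 0.934). Prf1 encodes perforin, the pore-forming protein of cytotoxic lymphocytes. It was at 0 in all 8 vehicle-treated libraries, with a mean of 6.78 in KO OXA and 11.8 in WT OXA.

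**Figure D3:**
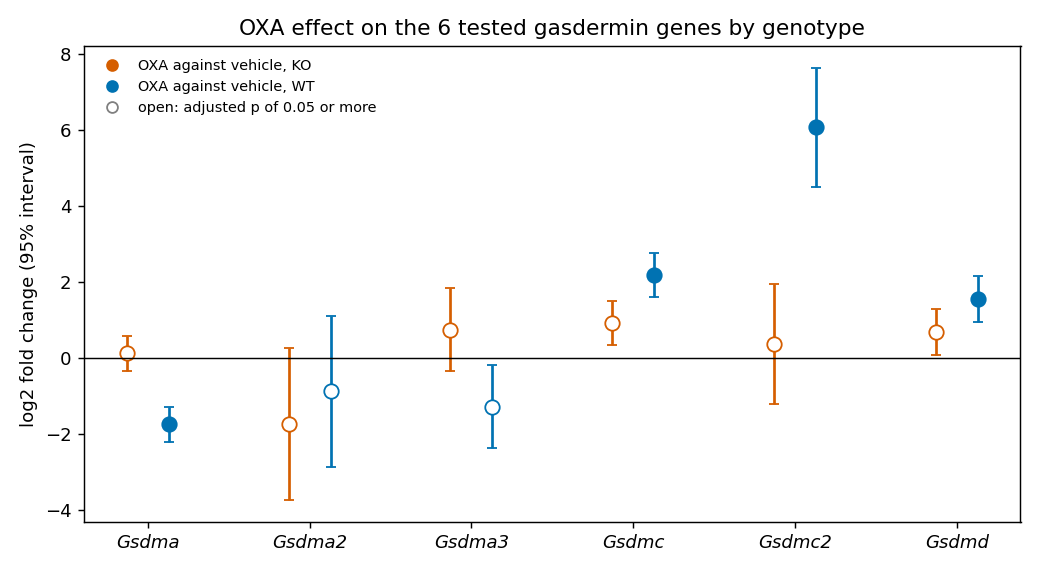
Log2 fold changes of OXA against vehicle in KO and WT mice for the 6 tested gasdermin genes, with 95% intervals. Filled points passed an adjusted p of 0.05: in WT mice Gsdma (-1.75), Gsdmc (2.17), Gsdmc2 (6.07) and Gsdmd (1.55) are filled, and in KO mice all points are open.

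A change of scale moved all genes in the comparisons that hold WT OXA. When every library was set to the same total, the median over all genes shifted by 0.31 in WT OXA against WT vehicle, by -0.12 in KO OXA against KO vehicle, by -0.42 in the difference between the effects and by -0.39 in KO OXA against WT OXA. Calls in WT mice were then 5107 higher and 1496 lower, beside 3019 and 2673 as reported. In the difference between the effects they were 883 positive and 3459 negative, beside 1698 and 1284, and in KO OXA against WT OXA 1273 higher and 5111 lower, beside 2450 and 2167. In KO vehicle against WT vehicle 4 genes were higher and 1 lower, beside 6 and 4. Quantile normalization shifted the WT median by -0.12 and gave 6 higher and 6 lower in KO vehicle against WT vehicle. On the equal-total scale the WT change was -1.43 for Gsdma, 2.49 for Gsdmc, 6.37 for Gsdmc2 and 1.87 for Gsdmd, and all 4 passed.

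Gsdme, the remaining gasdermin of the table with enough reads, is cut by caspase-3 and granzyme B. It changed by 0.18 ± 0.40 in KO mice (adjusted p = 0.890) and by 0.79 ± 0.40 in WT mice (adjusted p = 0.138, or 0.0364 at equal library totals). Its mean was 41.4 ± 17.9 in KO OXA, 34.03 ± 8.18 in KO vehicle, 31.3 ± 9.13 in WT OXA and 18.5 ± 7.91 in WT vehicle (SD, n = 4 each).

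Genes of the complexes that start gasdermin cleavage moved in both directions in wild-type mice given OXA. Aim2 and Naip2 were among those that rose, while the sensor Nlrp10 and the adaptor Pycard fell. Of 12 tested inflammasome sensors and adaptors 7 rose and 2 fell, where 18% of all genes rose and 16% fell. Their median log2 change was 2.40, against 0.10 over all genes. Some were low outside WT OXA and could pass the filter through WT OXA alone, such as Naip6, with 127 reads in WT OXA and 1 in WT vehicle. The counts and the median therefore say nothing about the list as a whole. Aim2, a sensor of cytosolic DNA, rose by 3.002 ± 0.43 (adjusted p = 3.02e-05), and Naip2, which recognises bacterial secretion proteins, rose by 2.75 ± 0.44 (adjusted p = 0.000103). Nlrp10, a keratinocyte member of the family, fell by 2.81 (adjusted p = 3.49e-07). Pycard, the adaptor ASC that joins sensors to caspase-1, had 588, 885, 812 and 1125 in WT OXA, against 1670, 1885, 1901 and 2115 in WT vehicle, a change of -1.18 ± 0.22 (adjusted p = 0.000438). In KO mice Pycard changed by 0.61 ± 0.22 (adjusted p = 0.208), with 3216, 2556, 2509 and 1324 in KO OXA, against 1450, 1477, 1299 and 1801 in KO vehicle. Without KO OXA library 4 that change was 0.87 and passed (adjusted p = 0.00713). None of the 12 genes was called in KO mice, where 1.9% of all genes were and the median of the 12 was 0.73. The effects differed between genotypes for 6 of the 12, positive for 2 and negative for 4, where 10.1% and 7.67% of all genes were. Among the 6 were Nlrp10 (2.78 ± 0.39, adjusted p = 8.88e-05), Pycard (1.79 ± 0.31, adjusted p = 0.000680) and Nlrp1b (-2.03 ± 0.62, adjusted p = 0.0289, lost in 10 of 28 alternatives).

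Among the proteases that cut gasdermins, Casp1 went in opposite directions in the genotypes. Casp1 had 1007, 1075, 829 and 593 in KO OXA, against 328, 391, 333 and 547 in KO vehicle. It had 129, 213, 170 and 383 in WT OXA, against 468, 572, 451 and 270 in WT vehicle. The KO groups did not overlap, and the WT groups overlapped through the highest WT OXA and the lowest WT vehicle library. The log2 change was 1.13 ± 0.29 in KO mice (adjusted p = 0.0482) and -1.04 ± 0.29 in WT mice (adjusted p = 0.00896). The difference was 2.17 ± 0.41 (adjusted p = 0.00124). The KO call sits at the threshold and was lost in 16 of 28 alternatives, with adjusted p of up to 0.178.

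Of the 6 tested proteases, 4 rose in KO mice, or 2 at equal library totals, and in WT mice 3 rose and 1 fell. Over all genes 1.9% were called in KO mice, and 18% rose and 16% fell in WT mice. Casp4, which cuts Gsdmd on sensing bacterial lipopolysaccharide, rose in both genotypes, by 1.33 ± 0.31 in KO mice (adjusted p = 0.0285) and 1.72 ± 0.31 in WT mice (adjusted p = 0.000319). The KO call for Casp4 was lost in 10 of 28 alternatives. Gzmb and Gzma, granule proteases of cytotoxic lymphocytes, rose by 6.26 ± 0.87 and 4.10 ± 0.87 in KO mice (adjusted p = 0.000228 and 0.0138) and by 4.43 ± 0.87 and 4.10 ± 0.87 in WT mice (adjusted p = 0.000653 and 0.00126). The KO call for Gzma was lost without KO OXA library 1 or 2 or KO vehicle library 3, with adjusted p of 0.0594 to 0.0813. For Casp4, Gzma and Gzmb the difference between genotypes did not pass (adjusted p = 0.587, 0.999 and 0.330). Casp8 changed by 0.34 ± 0.19 in KO mice (adjusted p = 0.441) and 0.06 ± 0.19 in WT mice (adjusted p = 0.844).

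Of 7 cytokines that leave through gasdermin pores and their inhibitors, 1 rose in KO mice, where 1.9% of all genes were called. In WT mice 4 rose and 1 fell, where 18% of all genes rose and 16% fell. Il18 fell by 2.44 in WT mice (adjusted p = 5.56e-07), to a mean of 158 ± 58.0 in WT OXA, against 832 ± 165 in WT vehicle. In KO mice it changed by 0.55 ± 0.25 (adjusted p = 0.320), with 1523 ± 454 in KO OXA and 1009 ± 208 in KO vehicle (SD, n = 4 each), and without KO OXA library 4 that change was 0.81 and passed (adjusted p = 0.0391). The effects differed by 2.99 ± 0.35 (adjusted p = 1.12e-05). Il18bp, which binds and blocks IL-18, rose by 3.11 ± 0.77 in KO mice (adjusted p = 0.0399, lost in 15 of 28 alternatives) and 3.64 ± 0.77 in WT mice (adjusted p = 0.00120). Il1b changed by 2.30 ± 0.68 in KO mice (adjusted p = 0.0983) and rose by 2.63 ± 0.68 in WT mice (adjusted p = 0.00535). In KO mice Il1b passed with edgeR (adjusted p = 0.0395) and DESeq2 (adjusted p = 0.00391), as it did without WT vehicle library 3 (adjusted p = 0.0177) or KO OXA library 4 (adjusted p = 0.0224), and the groups did not overlap. Il33, an alarmin of epithelial cells, changed by 0.39 ± 0.21 in KO mice (adjusted p = 0.426) and rose by 0.88 ± 0.21 in WT mice (adjusted p = 0.00306).

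Genes of membrane rupture and repair act after pores have formed. Of 9 tested, 4 fell and 1 rose in WT mice, where 16% of all genes fell and 18% rose. None was called in KO mice, where 1.9% of all genes were. The WT median was -0.30, or 0.02 at equal library totals, where 4 fell and 2 rose. Ninj1, which carries out plasma membrane rupture in lytic death, changed by 0.02 ± 0.18 in KO mice (adjusted p = 0.973) and fell by 0.86 in WT mice (adjusted p = 0.00130). Chmp4c, Chmp4b and Chmp2a, subunits of the ESCRT-III complex that pinches off damaged membrane, fell by 1.34, 0.83 and 1.18 in WT mice (adjusted p = 5.005e-06, 0.000152 and 0.000390). The effects differed between genotypes by 1.16 ± 0.23 for Chmp4c, 1.03 ± 0.20 for Chmp4b, 1.57 ± 0.31 for Chmp2a and 0.88 ± 0.26 for Ninj1 (adjusted p = 0.00199, 0.00143, 0.00184 and 0.0239). The Ninj1 difference was 0.44 and did not pass at equal library totals (adjusted p = 0.211), and it was lost without KO vehicle library 1 or KO OXA library 3.

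**Figure D4:**
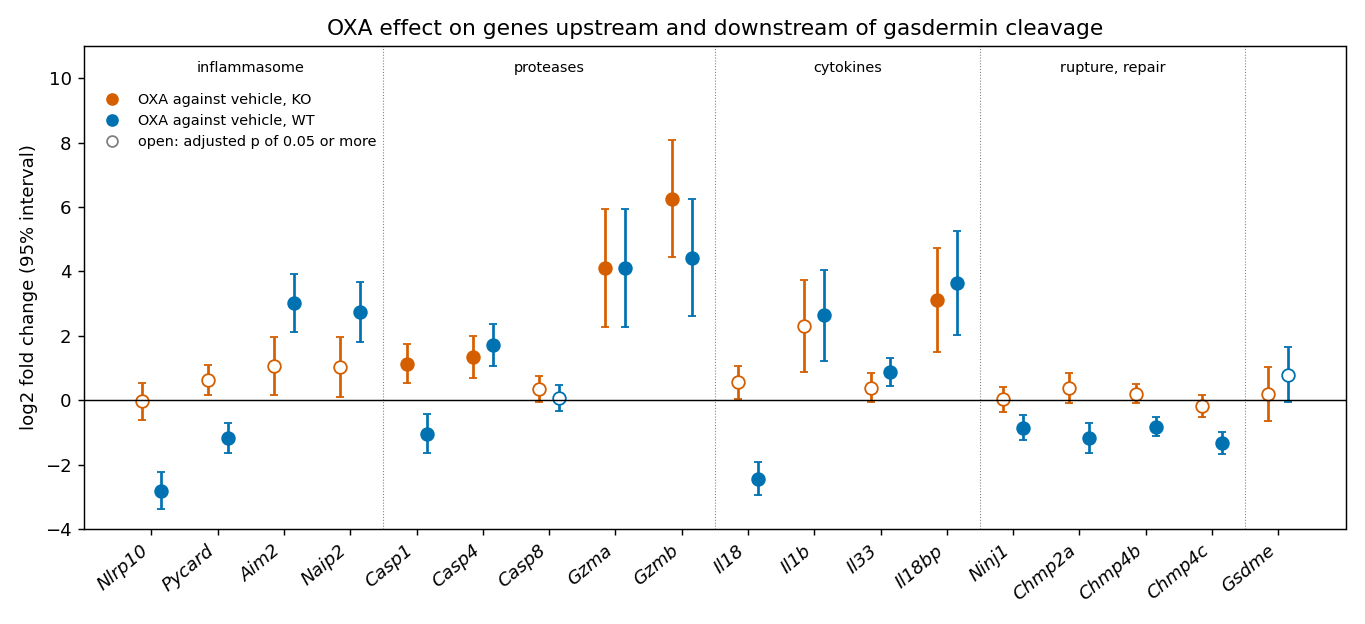
Log2 fold changes of OXA against vehicle in KO and WT mice, with 95% intervals, for inflammasome genes, gasdermin-cleaving proteases, released cytokines and genes of rupture and repair, with Gsdme at the right. Casp1 (1.13 in KO, -1.04 in WT) has filled points on both sides of 0, while Nlrp10, Pycard, Il18 and the Chmp genes have filled points below 0 in WT mice and open points in KO mice.

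The upstream list joins 3 genes of the IL-4 and IL-13 path, Il4ra, Il13ra1 and Stat6, with the transcription factors Irf1 and Irf2. Of these 5, only Irf1 was called in KO mice, where it rose, and in WT mice Il4ra, Il13ra1 and Irf1 rose and Stat6 fell. The shares over all genes were 1.9% called in KO mice, and 18% higher and 16% lower in WT mice. Il4ra, the chain shared by both IL-4 receptors, changed by 0.42 ± 0.24 in KO mice (adjusted p = 0.456) and rose by 2.35 ± 0.24 in WT mice (adjusted p = 5.17e-07), a difference of -1.93 ± 0.34 (adjusted p = 0.000676). Stat6, the transcription factor that acts for these receptors, changed by 0.39 ± 0.14 in KO mice (adjusted p = 0.216) and fell by 0.50 in WT mice (adjusted p = 0.0111), a call lost at equal library totals (adjusted p = 0.271). The Stat6 difference of 0.88 ± 0.20 (adjusted p = 0.00531) was 0.44 and not called at equal totals (adjusted p = 0.0697). Irf2, a known activator of Gsdmd transcription, changed by -0.04 ± 0.14 in KO mice (adjusted p = 0.925) and 0.33 ± 0.14 in WT mice (adjusted p = 0.0783, or 0.00341 at equal library totals, where the change was 0.65). Irf1, a related factor induced by interferon, rose by 1.68 ± 0.31 in KO mice (adjusted p = 0.00353) and 2.06 ± 0.31 in WT mice (adjusted p = 4.70e-05).

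Chromosomal neighbours of the clusters moved in both directions. Of 9 tested, 3 rose and 3 fell in WT mice, where 18% of all genes rose and 16% fell. None was called in KO mice, where 1.9% of all genes were. Ormdl3, a regulator of sphingolipid synthesis 39.0 kb from Gsdma3, changed by 0.05 ± 0.20 in KO mice (adjusted p = 0.945) and fell by 1.36 in WT mice (adjusted p = 4.36e-05). Fam49b, a regulator of Rac1 that lies 16.8 kb from Gsdmc4, rose by 1.45 ± 0.17 in WT mice (adjusted p = 2.58e-06). Naprt, an enzyme of NAD synthesis 23.6 kb from Gsdmd, fell by 1.19 in WT mice (adjusted p = 9.54e-05). The effects differed by 1.40 ± 0.29 for Ormdl3, -1.17 ± 0.24 for Fam49b and 1.36 ± 0.27 for Naprt (adjusted p = 0.00230, 0.00212 and 0.00183). Ormdl3 thus fell beside Gsdma3, whose own WT change did not pass. Fam49b rose beside the Gsdmc cluster, whereas Naprt fell beside Gsdmd, which rose. Psmd3, the listed gene nearest to Gsdma at 4.85 kb, had a mean of 728 ± 56 in WT OXA and 629 ± 217 in WT vehicle (SD). Ikzf3, 80.3 kb from Gsdma3 on the side of Ormdl3, had 55.1 ± 11.3 in WT OXA and 8.33 ± 11.9 in WT vehicle. A part of position in these changes was not tested.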

How the data were processed

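The authors deposited 1 table of normalized signal, in which each library's gene counts had been scaled by a size factor. In every library 100% of values came out as whole reads (tolerance 0.1 of a read) once divided by the value of a single read, and these reads were used where a test needed counts. The submitters' processing notes name FastQC 0.11.5, Trim Galore, cutadapt 1.10, TopHat2 2.1.0, Bowtie2 2.2.6, HTSeq 0.6.1, DESeq2 1.28.0 and GRCm38, with no order. The gene annotation used and any collapsing of molecular identifiers are not given in the sources used here. All 8 members had the same coordinates as in GENCODE M21, the source of the sequences.

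The main test was limma 3.58.1 (R 4.3.3), two-sided, on log2(value + 1), fitted over all 16 libraries with 4 group means and eBayes with a trend. The 16748 genes tested reached a value of 5 in 4 libraries or more. P-values were adjusted by Benjamini-Hochberg over all of them, with a threshold of 0.05. The procedure was first run on simulated counts. The genes changed there all had higher WT vehicle means than Gsdma2, Gsdma3 and Gsdmc2, so that run says nothing about genes this low. On the recovered reads edgeR 4.0.16 called 2860 genes higher and 2650 lower in WT mice and 374 higher and 13 lower in KO mice, and DESeq2 1.42.0 was also run. Other alternatives were pseudocounts of 0.5 and 5, no filter, a filter of 20, equal library totals, quantile normalization, only the groups compared, no trend, array weights, thinning to 5.61 M reads and leaving out each library.

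The members, lists and tests were chosen with earlier results of these data known. All members were named in every comparison, and Gsdme, Pycard, Casp1, Casp4, Casp8, Il18, Il1b, Il33, Ninj1, Stat6, Il4ra, Irf2 and Ormdl3 whatever their values. Of each list up to 3 called genes with the smallest p could be named, and the 5 genes most like the main member of each branch. Psmd3, Ikzf3 and Naip6 were named besides, to show limits of their lists.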

Additional observations from a re-analysis of the deposited data

Results flagged for a closer look

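Single libraries stood apart within their group for 5 of 44 sets of 4 values checked. Chance alone gives about 1 in 20 for values that vary continuously, which sets made up mostly of 0 do not. Gsdma2 was 3.94 in KO OXA library 4 and 0 in the others. Gsdmc3 was 1.24 in KO OXA library 3 and 1.73 in KO vehicle library 2, with 0 in the other libraries of those groups. Gsdmc4 was 4.64 in WT vehicle library 2 and 0 in the others of that group. These 4 values rest on 1 to 5 reads each. A set with 0 in all libraries but 1 is always counted, however small the remaining value is. The count of 5 therefore cannot be compared with the chance rate, and no excess over chance is read from it. Il18 was 1318 in KO vehicle library 4, above the others of its group.

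The OXA effect differed between genotypes (KO effect minus WT effect, log2 scale) for 3 members: Gsdma by 1.87, Gsdmc by -1.26 and Gsdmc2 by -5.71. Among the other named genes the signed difference was positive for Il18 (2.99), Nlrp10 (2.78), Casp1 (2.17), Pycard (1.79), Chmp2a (1.57), Ormdl3 (1.40), Naprt (1.36), Chmp4c (1.16), Chmp4b (1.03), Stat6 (0.88) and Ninj1 (0.88). It was negative for Nlrp1b (-2.03), Il4ra (-1.93) and Fam49b (-1.17). The Nlrp1b call was lost in 10 of 28 alternatives, edgeR included.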

How the results depend on the processing

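Of 828 values recomputed for the members, 789 kept their direction and side of the threshold, 11 lost a call, 12 gained one and 16 changed sign; all 16 belong to changes that were not called. For the other named genes the counts were 1674, 59, 13 and 18 of 1764. In KO mice, members called were 0 as reported, 1 with DESeq2 and 0 to 1 with a library left out. All genes called in KO mice were 318, against 199 when only the groups compared were fitted, 721 with DESeq2 and 182 to 1032 with a library left out, the highest without KO OXA library 4. Leaving out KO OXA library 1 or 2 gave 193 or 182, and KO vehicle library 1 or 3 gave 204 or 195. In KO vehicle against WT vehicle they were 10, against 5 with no filter, equal library totals or thinned reads, 3 with no trend, 43 with DESeq2 and 3 to 12 with a library left out. The Gsdma change in KO mice was -0.0060 at equal totals, -0.20 with quantile normalization and -0.024 to 0.24 with a library left out. In KO mice Ninj1 was -0.10 at equal totals, -0.030 with quantile normalization and -0.069 to 0.12 with a library left out, and Ormdl3 -0.076 at equal totals and -0.097 to 0.16. With a library left out Gsdme was -0.0070 to 0.50 and Irf2 -0.16 to 0.035 in KO mice, and Casp8 -0.16 to 0.15 in WT mice. In the difference between the effects Casp8 was -0.16 at equal totals, Gsdma2 -1.44 to 0.069 with a library left out, and Il1b 0.088 with quantile normalization, 0.45 with edgeR, 0.50 with DESeq2 and -0.66 to 0.48 with a library left out. In KO vehicle against WT vehicle Gsdma3 was -0.10 with quantile normalization, Gsdma2 -1.40 to 0.064 with a library left out, and Gsdmc2 -0.17 with a pseudocount of 5, -0.66 with quantile normalization, -0.39 with array weights, -1.10 with edgeR, -1.08 with DESeq2, -0.078 with thinned reads and -0.49 to 0.71 with a library left out. The cause of these changes was not tested.

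No paired analysis was possible because the codes in the titles differ between the groups and no replicate number is shared. Under the filter of 20, Gsdma2 and Gsdma3 were not tested. Depth limits Gsdma2, Gsdma3, Gsdmc3 and Gsdmc4, whose values rest on few reads.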
